A study of Drosophila melanogaster with 6 samples.

Results

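The Cpr genes encode cuticular proteins of the largest *Drosophila* family, whose proteins carry the Rebers and Riddiford consensus, a stretch that binds chitin. Members were taken by name, as every gene whose symbol is Cpr followed by a number, and 70 of the 17869 gene rows qualified. Genes with other names, such as the Lcp genes, were not members here, whether or not they carry that consensus. Statements below on the Cpr family cover these 70 genes only. Of these, 55 had at least 12 counts over the 6 libraries and were tested, among 11422 genes tested in all, and 15 fell under that minimum. RNA had been sequenced from whole larvae of the second instar (L2), in 3 *Pyk* 23/31 mutant samples and 3 *Pyk* 23/+ control samples. *Pyk* encodes pyruvate kinase, the enzyme of the last step of glycolysis. The mutants carried 2 different CRISPR/Cas9 deletions in trans, each a frameshift, and the controls carried *Pyk* 23 over an unmutated copy, so that the *Pyk* 23 allele was present in both genotypes. The samples are described only as biological replicates, and p-values therefore measure the spread between these samples.

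The insect cuticle is an extracellular layer of chitin and protein that the epidermis secretes over the body, the tracheae, the foregut and the hindgut. It is made anew before every molt, under pulses of the steroid hormone ecdysone, and different sets of cuticular protein genes are used at different times of the molting cycle and in different parts of the body. Cpr proteins fall into classes named after their chitin-binding stretch, of which RR-1 is linked mainly with soft and RR-2 mainly with hard cuticle. The number and letter in a symbol give the cytological band of the gene.

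The mutant libraries held 12499172 to 16029304 and the control libraries 11249487 to 11784491 read pairs assigned to genes. *Pyk* itself averaged 51.8 ± 7.06 counts per 1000000 assigned pairs, after scaling between libraries (CPM), in mutants, against 442 ± 23.1 CPM in controls (SD, n = 3 each). Levels are given as CPM, and changes as log2 fold changes of mutant over control from edgeR's quasi-likelihood fit, with the standard error (SE). A gene passed where its p, adjusted by the Benjamini-Hochberg method over all genes tested, was at most 0.05. Control replicate 3 stood apart from the other control libraries over the Cpr genes. It lay above both of them in 40 of the 55 members (72.7%, against 38.1% of all tested genes), and at least 2-fold above them in 21 members (38.2%, against 4.3%). Mutant replicate 3 lay at least 2-fold below the other mutant libraries in 3 members, *Cpr47Ed*, *Cpr65Eb* and *Cpr66Cb* (5.45%, against 2.99% of all tested genes). Counts of members that passed are therefore given with and without these libraries.

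More Cpr genes were higher than lower in the mutants, and the members differed widely in size and direction of change. Of the 55 tested members, 16 passed and were higher in mutants (29.1%, against 22.2% of all tested genes), and 9 passed and were lower (16.4%, against 26.0%). The other 30 did not pass. Among those that passed, 8 were at least 2-fold higher (14.5%, against 5.25% of all genes), and *Cpr49Ad* alone was at least 2-fold lower (1.82%, against 2.25%). The median log2 fold change was 0.77 over the members and 0.015 over all tested genes, and 42 members had a positive and 13 a negative fitted change. All 3 mutant libraries lay above all 3 control libraries in 31 members (56.4%, against 29.4% of all genes), below them in 9 members (16.4%, against 31.5%), and the genotypes overlapped in 15.

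**Figure D1:**
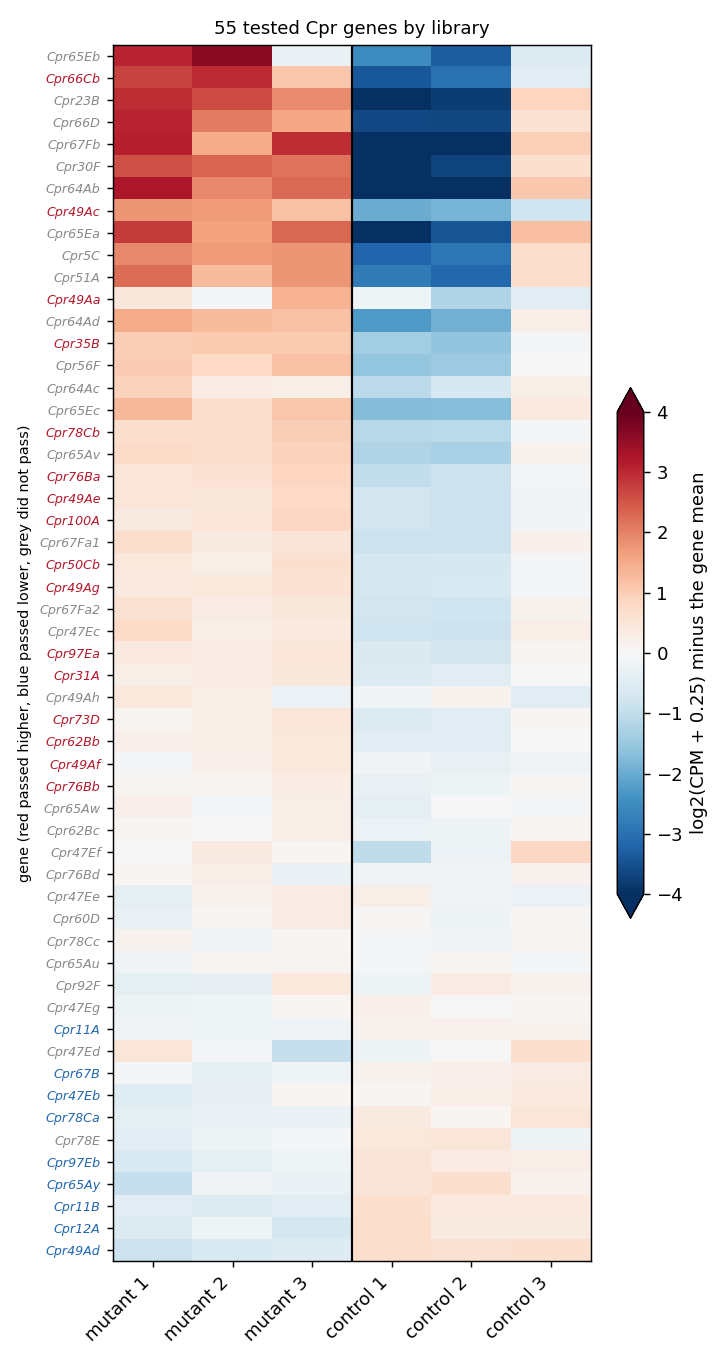
Levels of the 55 tested Cpr genes (rows, ordered by fitted change) in the 3 mutant and 3 control libraries (columns), as log2 of CPM with 0.25 added, minus the mean of the gene, with colours saturating at a difference of 4. Gene names are red for the 16 that passed higher, blue for the 9 that passed lower and grey for the 30 that did not pass; in the upper rows control replicate 3 is paler than the other controls.

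The summed level of all 70 Cpr genes was 8963, 7824 and 9091 CPM in the mutant libraries, against 6265, 5770 and 7476 CPM in the control libraries. The mutant libraries were all above the control libraries, and the ratio of the means was 1.33. Each genotype had 3 libraries, so an exact permutation test of this sum could not go below p = 0.1. Cpr transcripts made up 0.803 to 0.928% of the assigned pairs in mutants, against 0.571 to 0.732% in controls. In whole larvae, fewer cells of a type and less RNA per cell cannot be told apart. A single gene, *Cpr47Eg*, supplied 29.9 to 35.6% of the summed level in mutants, against 43.2 to 56.8% in controls. Without it the sum was 6283, 5088 and 5855 CPM in mutants and 2708, 2686 and 4247 CPM in controls, a ratio of 1.79. The middle of the family moved in the same way as the sum. The median member stood at 45.2, 39.9 and 45.1 CPM in mutants, against 11.1, 10.6 and 22.4 CPM in controls.

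Levels of different genes can be compared only per length. Per kilobase of exon, *Cpr47Eg* was the highest member in both genotypes, with a mean of 6851 CPM per kb in mutants and 7815 CPM per kb in controls. *Cpr78Cc* followed it, with 1239 CPM per kb in mutants and 1182 CPM per kb in controls. The order below these differed between the genotypes. In mutants the next members were *Cpr65Ea* (958 CPM per kb), *Cpr64Ad* (665) and *Cpr51A* (582), which stood at 153, 149 and 104 CPM per kb in controls. In controls the next members were *Cpr11A* (295 CPM per kb in mutants, 364 in controls) and *Cpr60D* (220 in mutants, 208 in controls).

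The 2 most abundant members did not pass in either direction with all libraries. *Cpr47Eg* had 2680, 2735 and 3237 CPM in mutants, against 3556, 3085 and 3229 CPM in controls. The ranges overlapped, and the log2 fold change was -0.19 (SE 0.084, adjusted p = 0.087). It passed and was lower without mutant replicate 3 (-0.28, adjusted p = 0.0092) and without replicate 3 of both genotypes (-0.30, adjusted p = 0.0095). *Cpr78Cc* had 688, 582 and 671 CPM in mutants, against 601, 566 and 683 CPM in controls (log2 fold change 0.07, SE 0.087, adjusted p = 0.54). The highest control library lay within the mutant range, and the sign of this small fitted change turned when control replicate 2 was left out (-0.00). *Cpr60D*, the fourth member per kb in controls, had 116, 148 and 177 CPM in mutants, against 147, 123 and 146 CPM in controls, with no separation of the genotypes (adjusted p = 0.7).

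In the 9 members that passed and were lower, all mutant libraries lay below all control libraries. *Cpr49Ad* had 36.4, 43.2 and 45.6 CPM in mutants, against 106, 101 and 103 CPM in controls. All 3 mutant libraries were well under the lowest control, and the log2 fold change was -1.31 (SE 0.089, adjusted p = 1.6e-05). *Cpr11B* had 25.4, 24.4 and 25.5 CPM in mutants, against 54.1, 46.3 and 45.5 CPM in controls (log2 fold change -0.95, SE 0.085, adjusted p = 3.7e-05). Its 3 mutant values were almost equal. *Cpr11A*, the neighbour of *Cpr11B* by band and the third most abundant member per kb in controls, had 391, 387 and 396 CPM in mutants, against 477, 493 and 478 CPM in controls. The difference was small but larger than the spread (log2 fold change -0.30, SE 0.055, adjusted p = 0.0015).

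The other falling members covered a wide range of levels. *Cpr12A* had 4.06, 5.3 and 3.55 CPM in mutants, against 9.82, 7.72 and 7.81 CPM in controls (log2 fold change -0.97, SE 0.18, adjusted p = 0.0016). *Cpr97Eb* had 4.92, 5.85 and 6.75 CPM in mutants, against 11.1, 9.7 and 9.26 CPM in controls (log2 fold change -0.78, SE 0.15, adjusted p = 0.002). *Cpr67B* had 154, 125 and 144 CPM in mutants, against 180, 187 and 207 CPM in controls (log2 fold change -0.44, SE 0.089, adjusted p = 0.0028). In each of these the highest mutant library was below the lowest control library. *Cpr65Ay* had 10, 17.5 and 16.1 CPM in mutants, against 27.6, 30.5 and 22.0 CPM in controls (log2 fold change -0.88, adjusted p = 0.03). *Cpr78Ca*, a gene of low level, had 3.51, 3.9 and 3.84 CPM in mutants, against 6.1, 4.98 and 6.63 CPM in controls (log2 fold change -0.65, adjusted p = 0.0079). *Cpr47Eb* came nearest to overlap, with 31.0, 34.4 and 45.1 CPM in mutants, against 45.2, 51.6 and 56.7 CPM in controls (log2 fold change -0.47, adjusted p = 0.036).

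The summed level of these 9 genes was 660, 646 and 687 CPM in mutants, against 917, 932 and 936 CPM in controls. Control replicate 3 lay beside the other controls in this sum. The 9 genes were picked for passing with all libraries, which favours genes whose controls lie together, so this is a description. Without control replicate 3, 8 members passed and were lower (25.8% of all genes did so), and all 8 were among the 9; the ninth, *Cpr47Eb*, did not pass (adjusted p = 0.088). Without replicate 3 of both genotypes, 9 of 54 members passed and were lower (25.7% of all genes), of which 8 were among the 9. The members lower in mutants were no larger a share of the family than of all genes in any of these fits.

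Among the members that passed and were higher in mutants, *Cpr49Ac* had the clearest separation. It had 134, 126 and 88.0 CPM in mutants, against 9.55, 10.6 and 22.4 CPM in controls. The lowest mutant library was several times the highest control, control replicate 3, and the log2 fold change was 3.03 (SE 0.45, adjusted p = 0.0067). Its call was lost with the replicate number as a block (adjusted p = 0.06). *Cpr49Ae*, of the same cluster, had the smallest p of the rising members, with 9.17, 9.05 and 11.4 CPM in mutants, against 3.8, 3.43 and 5.81 CPM in controls (log2 fold change 1.19, SE 0.2, adjusted p = 0.0011). *Cpr35B* had 26.0, 27.0 and 27.0 CPM in mutants, against 4.78, 4.2 and 12.4 CPM in controls (log2 fold change 1.90, SE 0.46, adjusted p = 0.028). The mutant libraries were nearly equal in *Cpr35B*, and the spread came from control replicate 3. The gene did not pass without mutant replicate 3 (adjusted p = 0.069).

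*Cpr100A* had 179, 196 and 249 CPM in mutants, against 84.2, 75.9 and 130 CPM in controls (log2 fold change 1.11, SE 0.26, adjusted p = 0.024). *Cpr76Ba* had 39.6, 42.5 and 52.2 CPM in mutants, against 14.2, 15.7 and 26.9 CPM in controls (log2 fold change 1.24, SE 0.29, adjusted p = 0.022). *Cpr78Cb* had 95.2, 96.9 and 120 CPM in mutants, against 28.0, 28.6 and 58.7 CPM in controls (log2 fold change 1.44, adjusted p = 0.033). In all 3 genes control replicate 3 was the highest control and still lay below every mutant library. The call of *Cpr100A* was lost without control replicate 1 (adjusted p = 0.076), mutant replicate 2 (0.064) or mutant replicate 3 (0.072), and that of *Cpr76Ba* without control replicate 2 (0.072), mutant replicate 2 (0.057) or mutant replicate 3 (0.064). The call of *Cpr78Cb* was also lost without mutant replicate 3 (adjusted p = 0.095). The remaining members of the 2-fold group were scarce in controls. *Cpr66Cb* had 274, 265 and 75 counts in mutants, against 0, 1 and 19 counts in controls (log2 fold change 4.57, SE 1.2, adjusted p = 0.038). Its call was lost by limma-voom (adjusted p = 0.074) and without control replicate 1 or 2 or mutant replicate 1 or 2 (adjusted p = 0.099, 0.12, 0.1 and 0.1). *Cpr49Aa* had 9, 4 and 18 counts in mutants, against 3, 0 and 2 counts in controls, and its call (adjusted p = 0.047) was likewise lost without control replicate 3 (adjusted p = 0.083).

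The other 8 rising members that passed had changes under 2-fold. *Cpr31A*, of high level, had 268, 284 and 310 CPM in mutants, against 155, 165 and 226 CPM in controls (log2 fold change 0.66, SE 0.15, adjusted p = 0.013). *Cpr49Ag* had 196, 200 and 227 CPM in mutants, against 92.4, 97.5 and 144 CPM in controls (log2 fold change 0.90, SE 0.19, adjusted p = 0.012). *Cpr62Bb* had 31.8, 33.1 and 37.7 CPM in mutants, against 20.3, 20.5 and 28.4 CPM in controls (log2 fold change 0.57, SE 0.14, adjusted p = 0.011). These genes had the same arrangement of libraries as the larger changes, with control replicate 3 between the other controls and the mutants. The rest of this group was *Cpr50Cb* (0.90), *Cpr97Ea* (0.77), *Cpr73D* (0.58), *Cpr49Af* (0.39) and *Cpr76Bb* (0.31), with log2 fold changes in parentheses. Without mutant replicate 3, *Cpr31A*, *Cpr49Ag* and *Cpr50Cb* did not pass (adjusted p = 0.063, 0.055 and 0.053). Nor did *Cpr97Ea*, *Cpr73D* and *Cpr76Bb* (adjusted p = 0.094, 0.065 and 0.077), while *Cpr62Bb* and *Cpr49Af* still passed (0.038 and 0.039). The call of *Cpr49Af* was lost without control replicate 1, 2 or 3 or mutant replicate 2 (adjusted p = 0.068, 0.09, 0.052 and 0.064). It was also lost without replicate 3 of both genotypes (0.051). *Cpr73D* overlaps *Ogdh* on the other strand, and the counts were stranded.

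**Figure D2:**
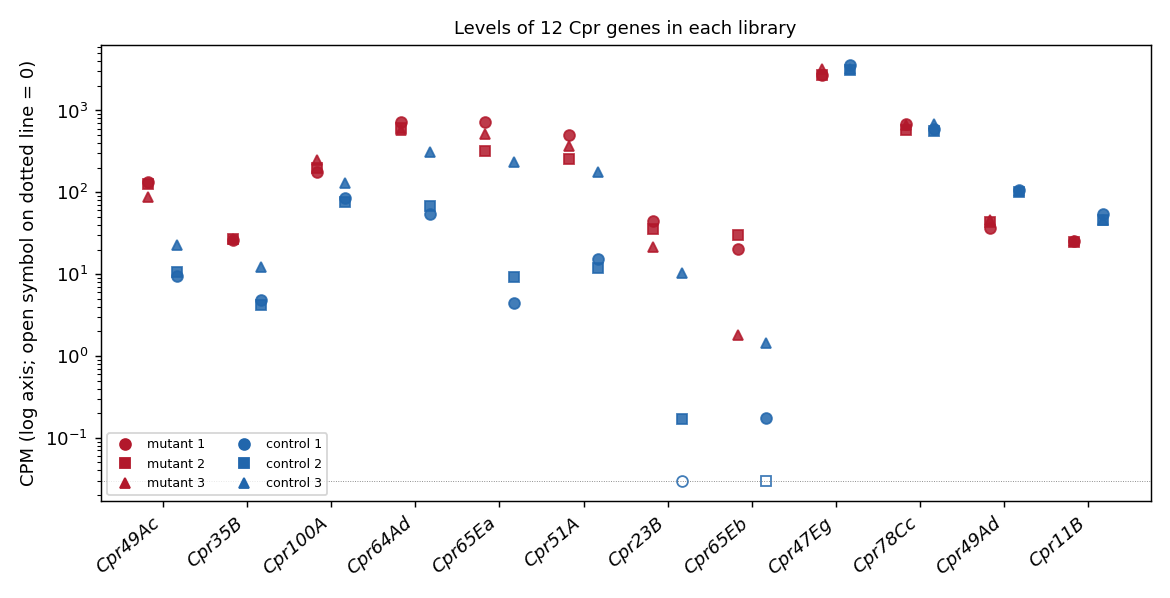
CPM on a log axis in each library for 12 Cpr genes, with mutants in red on the left and controls in blue on the right of each gene; symbols mark the replicate number, and open symbols on the dotted line are 0. From *Cpr49Ac* to *Cpr65Eb* all mutant libraries lie above all controls and the control triangle, replicate 3, lies above the other controls, while in *Cpr49Ad* and *Cpr11B* the 3 controls lie together above the mutants.

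A further 15 members had every mutant library above every control library and did not pass. Their fitted log2 fold changes ran from 0.87 to 4.99, with adjusted p from 0.055 to 0.28, and 8 of the 10 largest fitted changes of the family were in this group. *Cpr65Ea* had 724, 316 and 511 CPM in mutants, against 4.42, 9.1 and 235 CPM in controls (log2 fold change 2.64, SE 1.7, adjusted p = 0.28). Control replicate 3 was many times the other controls, and on the log2 scale it lay 0.83 of the way to the mean of mutants 1 and 2. *Cpr51A* had 507, 258 and 370 CPM in mutants, against 15.2, 12 and 176 CPM in controls (log2 fold change 2.48, SE 1.3, adjusted p = 0.19). *Cpr64Ad* had 718, 615 and 584 CPM in mutants, against 53.9, 68.6 and 308 CPM in controls (log2 fold change 2.15, SE 0.83, adjusted p = 0.1). *Cpr56F* had 249, 217 and 277 CPM in mutants, against 41.8, 45 and 126 CPM in controls, and came closest to passing (log2 fold change 1.81, SE 0.54, adjusted p = 0.055).

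The other genes of this group had the same order of libraries, with control replicate 3 above the other controls and below the mutants. *Cpr65Av* had 156, 149 and 174 CPM in mutants, against 40.2, 37.2 and 103 CPM in controls. *Cpr65Ec* had 164, 103 and 144 CPM in mutants, against 19.6, 20.1 and 85.8 CPM in controls. The genes *Cpr67Fa1* and *Cpr67Fa2*, which share a name root and lie side by side, behaved alike. *Cpr67Fa1* had 137, 108 and 121 CPM in mutants, against 46.7, 46.3 and 96.9 CPM in controls (log2 fold change 0.95, SE 0.36, adjusted p = 0.097). *Cpr67Fa2* had 194, 160 and 171 CPM in mutants, against 75.5, 72.2 and 139 CPM in controls (log2 fold change 0.87, SE 0.31, adjusted p = 0.078). Reads that map to several places are not in the gene counts. How many of them came from this pair was not tested, and its values are uncertain to that extent. *Cpr47Ec* came close to this group, with 156, 110 and 120 CPM in mutants, against 52.5, 51.3 and 111 CPM in controls, where control replicate 3 exceeded the lowest mutant.

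Some members were nearly silent in controls 1 and 2. Of the tested members, 8 had at most 13 counts in each of these libraries and at least 100 counts in a mutant library, and they had 16 to 243 counts in control replicate 3. *Cpr23B* had 734, 459 and 304 counts in mutants, against 0, 2 and 114 counts in controls. The change was fitted at 3.30 on the log2 scale and did not pass (SE 1.4, adjusted p = 0.12). *Cpr65Eb* had 326, 381 and 25 counts in mutants, against 2, 0 and 16 counts in controls (log2 fold change 4.99, SE 1.6, adjusted p = 0.068). Here mutant replicate 3 was low as well as control replicate 3 high, and the 2 libraries nearly met.

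*Cpr67Fb* had 97.1, 31.0 and 87.1 CPM in mutants, against 0.265, 0.429 and 21.8 CPM in controls (log2 fold change 3.27, adjusted p = 0.17). Most of its exon length (389 of 457 bases) overlaps the antisense gene *asRNA:CR45171*, and the counts were stranded. *Cpr64Ab* had 99.2, 39.9 and 50.2 CPM in mutants, against 0.354, 0.257 and 22.1 CPM in controls (log2 fold change 3.07, adjusted p = 0.19). *Cpr66D* had 86.2, 43.8 and 30.8 CPM in mutants, against 0.619, 0.601 and 15.3 CPM in controls (log2 fold change 3.30, adjusted p = 0.12). In each, the gap between control replicate 3 and the lowest mutant library was a smaller ratio than that between the highest and the lowest mutant library. *Cpr30F* had 59.6, 50.2 and 44.9 CPM in mutants, against 0.354, 0.515 and 15.4 CPM in controls (log2 fold change 3.26, adjusted p = 0.11). *Cpr5C* had 38.2, 32.9 and 34.2 CPM in mutants, against 0.885, 1.12 and 16.3 CPM in controls (log2 fold change 2.53, adjusted p = 0.14). The mutant libraries lay close together in both genes. The eighth, *Cpr66Cb*, is given above with the members that passed.

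The number of rising members that passed depended on which libraries were used. Without control replicate 3, 31 of 55 members passed and were higher (22.8% of all genes did so), 26 of them at least 2-fold (7.07% of all genes). Of the 16 that passed with all libraries, 14 were among these 31, with *Cpr49Aa* and *Cpr49Af* (adjusted p = 0.083 and 0.052) as the exceptions. Of the 15 that had not passed although the genotypes did not overlap, 14 now passed, with *Cpr65Eb* as the exception. Control replicate 3 was set apart by its high levels in these same genes, so more calls without it follow from that choice. The counts without it are a description and no further support for a difference between the genotypes. Without replicate 3 of both genotypes, 31 of 54 members passed and were higher (24.1% of all genes), 26 of them at least 2-fold (7.94% of all genes). Leaving out another library lowered the count. It was 7 without control replicate 1 (12.7%, against 16.4% of all genes) and 7 without control replicate 2 (12.7%, against 16.3%). It was 11 without mutant replicate 1 (20%, against 18.9%), 8 without mutant replicate 2 (14.5%, against 20.0%) and 6 without mutant replicate 3 (10.9%, against 20.6%). Of these fits, only that without mutant replicate 1 had a larger share of members than of all genes passing higher. With all libraries, 23 members passed and were higher by DESeq2 (21.8% of all genes) and 29 by limma-voom (23.2%), of which 15 and 14 were among the 16. *Cpr49Ae* and *Cpr62Bb* passed and were higher in all 15 alternatives tried, and 7 of the falling members (*Cpr49Ad*, *Cpr67B*, *Cpr78Ca*, *Cpr97Eb*, *Cpr11A*, *Cpr11B* and *Cpr12A*) passed and were lower in all of them.

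**Figure D3:**
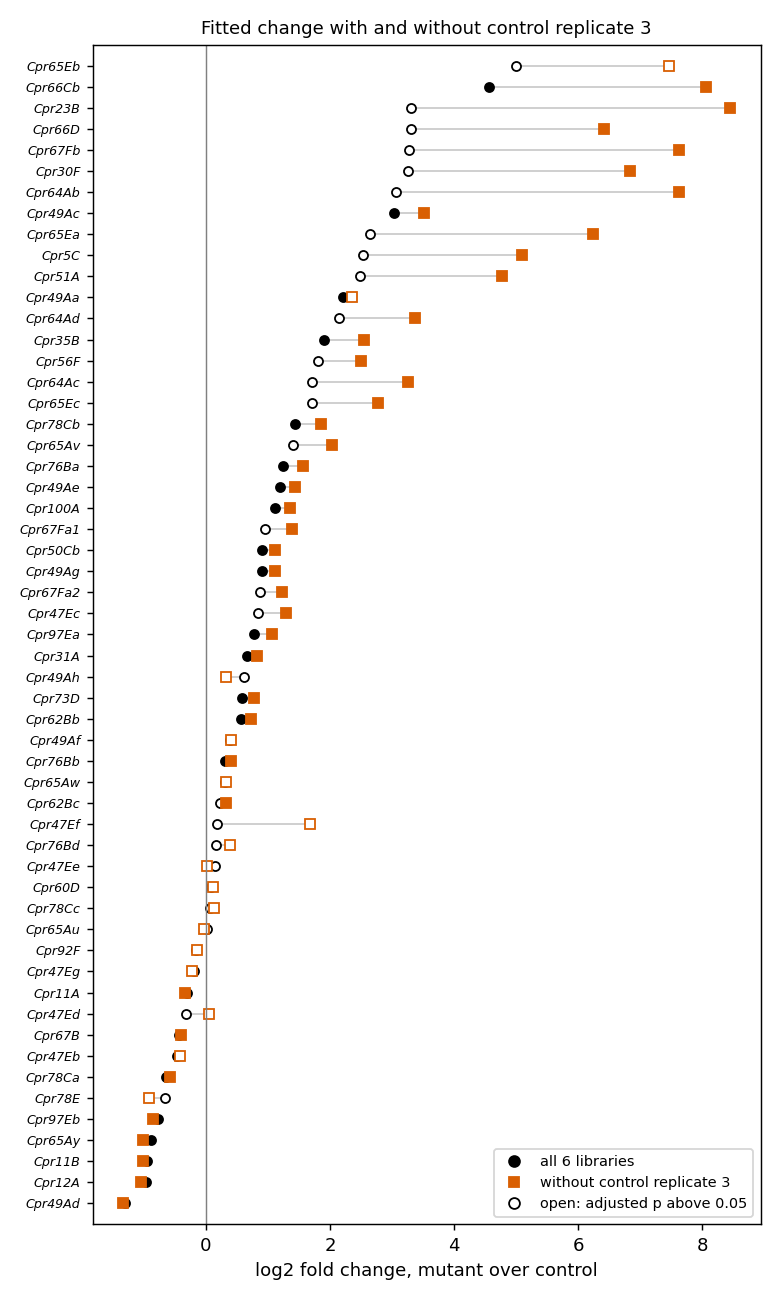
Fitted log2 fold change of mutant over control for the 55 tested Cpr genes with all 6 libraries (black circles) and without control replicate 3 (orange squares); filled symbols had an adjusted p of at most 0.05. Without that library 31 members passed higher and 8 lower; where controls 1 and 2 held at most 13 counts, the size of the orange value depends on the prior count and is no measure of the fold.

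The place of control replicate 3 between the genotypes was measured gene by gene, on log2 CPM with a prior count of 2, as 0 at the mean of controls 1 and 2 and 1 at the mean of mutants 1 and 2. Over the 29 Cpr genes at least 2-fold higher in mutants 1 and 2 than in controls 1 and 2, its median place was 0.72, with quartiles of 0.57 and 0.78. It ran from 0.31 in *Cpr49Ac* to 1.72 in *Cpr47Ef*, a gene of few counts. Over all 1114 genes that met the same condition the median was 0.40. Mutant replicate 3 lay at a median of 1.01 over the same Cpr genes and 0.93 over all such genes. Over the 3 Cpr genes at least 2-fold lower in mutants 1 and 2, control replicate 3 stayed near the other controls, at a median of 0.14. The genes were selected for their difference in the other 4 libraries, and these places are a description.

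**Figure D4:**
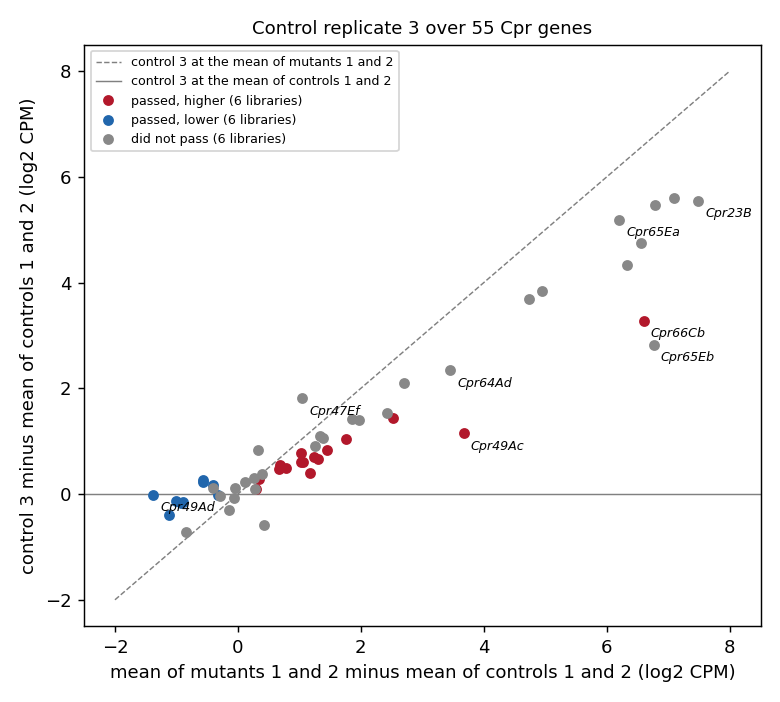
Each point is a tested Cpr gene, with the difference between mutants 1 and 2 and controls 1 and 2 on the horizontal axis and that between control 3 and controls 1 and 2 on the vertical axis, both in log2 CPM. Most rising members lie between the solid line (control 3 equal to the other controls) and the dashed line (control 3 equal to mutants 1 and 2), at a median of 0.72 of the way over 29 genes, while the falling members lie near the solid line.

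The remaining members with overlapping genotypes were mostly of low level. *Cpr65Au* had 3.02, 3.51 and 3.7 CPM in mutants, against 3.18, 3.69 and 3.27 CPM in controls (adjusted p = 1.0), and *Cpr92F* had 2.95, 3.12 and 5.4 CPM in mutants, against 3.36, 4.98 and 4.45 CPM in controls (adjusted p = 0.64). *Cpr65Au* overlaps the antisense gene *asRNA:CR46005*. *Cpr62Bc* was the highest of the remainder, with 113, 107 and 127 CPM in mutants, against 90.8, 92.2 and 113 CPM in controls. Control replicate 3 reached the mutant range there, and the gene did not pass (log2 fold change 0.23, adjusted p = 0.083). *Cpr65Aw* had 7.33, 6.08 and 7.68 CPM in mutants, against 4.87, 6.26 and 5.9 CPM in controls (adjusted p = 0.12). *Cpr47Ed*, *Cpr47Ee*, *Cpr47Ef*, *Cpr49Ah*, *Cpr64Ac*, *Cpr76Bd* and *Cpr78E* stayed at or below 1.36 CPM in every library and did not pass. Of the overlapping members, *Cpr47Ec*, *Cpr62Bc* and *Cpr64Ac* passed and were higher once control replicate 3 was left out (adjusted p = 0.00049, 0.013 and 0.022).

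Cpr genes lie in clusters of neighbours, and 49 of the 70 fell into 12 clusters when genes up to 20000 bases apart were joined. Positions are those of the dm6 assembly (annotation BDGP6.54). The cluster with the most members that passed was 49A, at chr2R:12376626-12415170. There 5 of 7 tested genes were higher and 1 was lower (22.2% and 26.0% of all tested genes). Adjacent genes went different ways within it. *Cpr49Ac* (log2 fold change 3.03) and *Cpr49Ad* (-1.31) are 838 bases apart on opposite strands, and both passed. In cluster 78C, at chr3L:21291860-21301171, *Cpr78Ca* (-0.65) and *Cpr78Cb* (1.44) are 1691 bases apart and both passed. In cluster 97E, at chr3R:27083130-27091130, *Cpr97Ea* (0.77) and *Cpr97Eb* (-0.78) are 1925 bases apart on the same strand and both passed.

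In the other clusters no members passed in opposite directions. In 65E (chr3L:7086003-7093841) and in 67F (chr3L:10889990-10894693) each of the 3 members had all mutant libraries above all controls, and none passed. In 76B, 2 of 3 tested members passed and were higher (22.2% of all tested genes did so). In 47E (chr2R:11251751-11278445), which holds the most abundant member, 1 of 6 tested genes passed, *Cpr47Eb*, and it was lower (26.0% of all tested genes were). Fitted changes in 47E had both signs, as in the neighbours *Cpr47Eb* (-0.47) and *Cpr47Ec* (0.84, did not pass). Of the 4 tested members on the X chromosome, *Cpr11A*, *Cpr11B* and *Cpr12A* had all mutant libraries below all controls (32.4% of all tested genes on X did so) and *Cpr5C* had them all above (26.3%). On chromosome arm 3L, 3 of 26 tested members had them all below (30.5% of all tested genes on 3L) and 16 had them all above (30.7%). Rising and falling members had like exon lengths, with medians of 867 bases in the 31 genes and 858 bases in the 9. The tested members were short genes, with a median exon length of 858 bases against 1923 bases over all tested genes, and 35 of the 55 had 2 exon blocks.

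**Figure D5:**
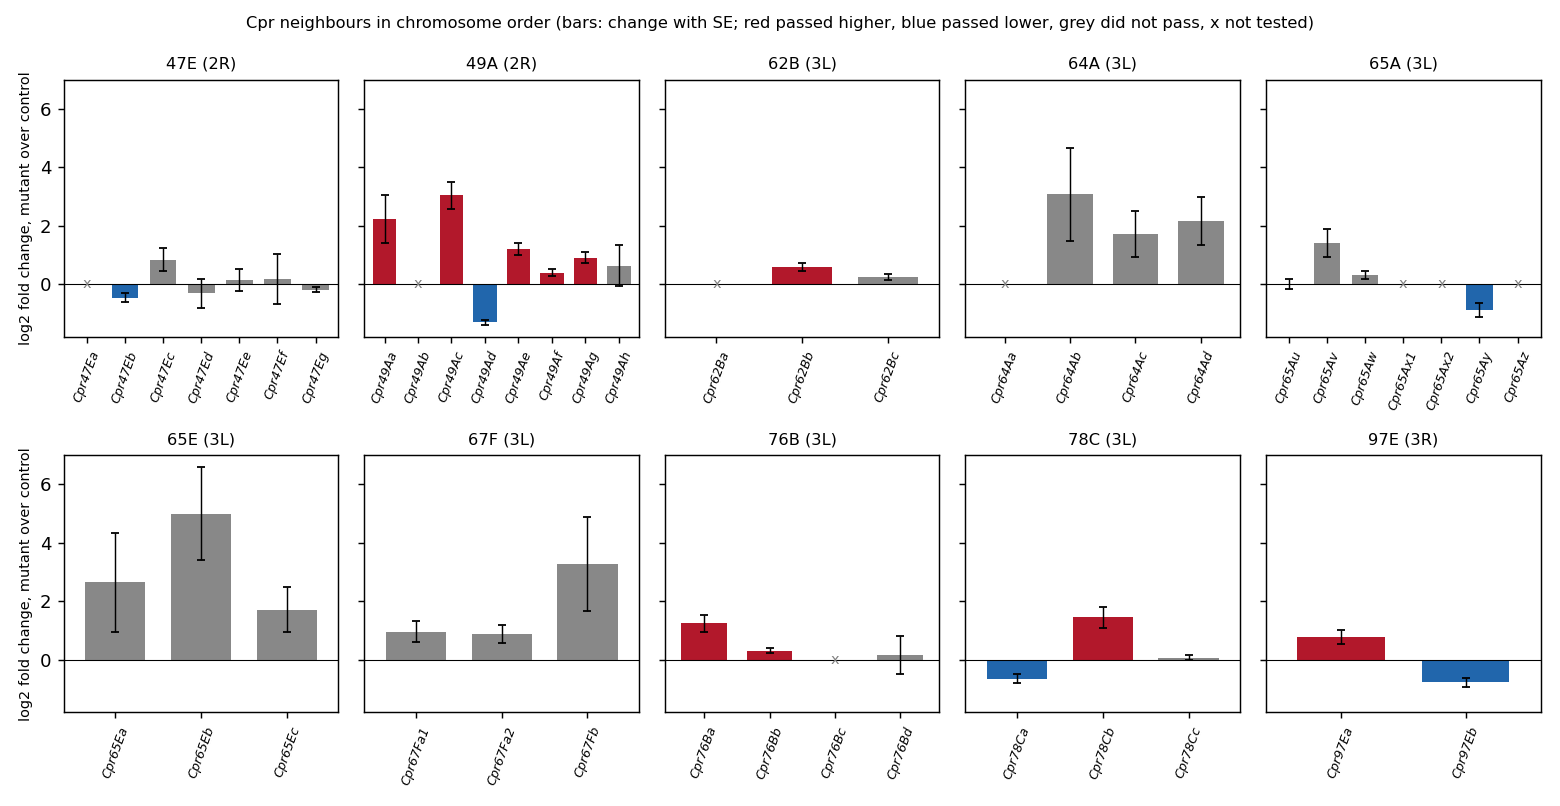
Log2 fold change of mutant over control, with the SE, for Cpr genes in chromosome order in the 10 clusters with at least 2 tested members; red bars passed higher, blue bars passed lower, grey bars did not pass and x marks an untested gene. Neighbours of opposite sign stand side by side in 49A, 78C and 97E, while all bars are positive in 62B, 64A, 65E, 67F and 76B.

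The 15 members under the count minimum were *Cpr30B*, *Cpr47Ea*, *Cpr49Ab*, *Cpr50Ca*, *Cpr57A*, *Cpr62Ba*, *Cpr64Aa*, *Cpr65Ax1*, *Cpr65Ax2*, *Cpr65Az*, *Cpr72Ea*, *Cpr72Eb*, *Cpr72Ec*, *Cpr76Bc* and *Cpr92A*. *Cpr49Ab*, *Cpr57A*, *Cpr64Aa* and *Cpr65Az* had 0 counts in every library. The exons of *Cpr57A* lie wholly within *Obp57d* on the same strand, so its 0 does not measure its transcript. *Cpr62Ba* had 5, 2 and 0 counts in mutants and 0 in each control, which is too few for a comparison. All 3 genes of cluster 72E were in this group, with 6 to 10 counts over the 6 libraries.

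Other genes of the cuticle were taken as lists. Of all tested genes, 22.2% passed and were higher and 26.0% passed and were lower, and the count of each list is to be read beside these shares. Of 50 tested genes for other structural cuticle proteins, such as the Lcp and Tweedle families, 4 passed and were higher, 8 passed and were lower and 38 did not pass, with a median log2 fold change of 1.64. Without control replicate 3, 31 passed and were higher and 8 lower (22.8% and 25.8% of all genes did so). That library was at least 2-fold above the other controls in 28 of the 50 (4.3% of all tested genes). *Lcp4*, a larval cuticle protein, had 220, 216 and 229 CPM in mutants, against 650, 581 and 495 CPM in controls (log2 fold change -1.37, adjusted p = 1.7e-05). *TwdlL*, of the Tweedle family, had 804, 933 and 1045 CPM in mutants, against 93.5, 96.1 and 418 CPM in controls and did not pass (adjusted p = 0.08). Control replicate 3 was the lowest control in *Lcp4* and far above the other controls in *TwdlL*. *Twdlalpha* was also lower (log2 fold change -0.79, adjusted p = 4.6e-05), and *Lcp1* (1.06, adjusted p = 0.00028) and *Lcp9* (adjusted p = 0.0005) had the smallest p of those higher, *Lcp9* at no more than 1.78 CPM in any library.

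Genes that make and remodel chitin were counted in the same way, beside 22.2% of all tested genes higher and 26.0% lower. Of 19 tested genes of chitin synthesis and assembly, 9 passed and were higher and 2 were lower (median log2 fold change 0.37). Of 17 tested genes listed under chitin turnover, 11 were higher and 1 was lower (median 0.45). Those 11 include *Idgf1*, *Idgf2*, *Idgf3*, *Idgf5* and *Idgf6*, chitinase-like genes whose part in chitin turnover was not tested. Control replicate 3 was at least 2-fold above the other controls in 0 genes of either list. *kkv*, the chitin synthase of the epidermis and tracheae, had 289, 300 and 267 CPM in mutants, against 150, 168 and 152 CPM in controls (log2 fold change 0.86, adjusted p = 2.9e-05). *Cht7*, a chitinase-like gene, had 525, 512 and 495 CPM in mutants, against 162, 155 and 250 CPM in controls (log2 fold change 1.43, adjusted p = 0.0038). Both genes had all mutant libraries above all controls. *Gfat1*, an enzyme of the hexosamine pathway that supplies chitin synthesis, was higher (log2 fold change 0.61, adjusted p = 0.00013), as were the chitinase gene *Cht6* (0.67, adjusted p = 0.0028) and *Idgf3* of the same family (0.51, adjusted p = 0.0032). *nst* (-0.51, adjusted p = 0.0014), which acts in the same hexosamine pathway, *Gfat2* (-0.26, adjusted p = 0.027) and the chitinase gene *Cht10* (-0.66, adjusted p = 0.0028) were lower. Of the tanning list, 5 symbols (ebony, black, yellow, speck and aaNAT) did not match the annotation, and their genes were not analysed here. The symbol tan was matched to *tant*, a different gene, so the tanning gene *tan* was not analysed either. Of the 7 matched genes, which include *tant* (log2 fold change 0.11, adjusted p = 0.52), 5 passed and were higher and 0 were lower. The smallest p were those of *stw* (log2 fold change 1.31, adjusted p = 0.00024) and *yellow-f2* (0.22, adjusted p = 0.031). *ple*, the tyrosine hydroxylase of dopamine synthesis, had 311, 401 and 576 CPM in mutants, against 74.4, 72.8 and 178 CPM in controls (log2 fold change 1.99, adjusted p = 0.037).

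The Osiris genes, which encode membrane proteins of epidermis and tracheae, had the largest median change of the lists (4.37). However, 3 of 18 tested genes passed, all higher (22.2% of all tested genes did so). These 3 (*Osi10a*, *Osi12* and *Osi13*) stayed at or below 3.2 CPM in every library. The summed level of the Osiris genes ran from 349 to 4882 CPM over the mutant libraries, against 8.23 to 228 CPM over the controls. *Osi7* had 447, 1185 and 6.97 CPM in mutants, against 0.708, 0.172 and 8.35 CPM in controls, where mutant replicate 3 lay within the control range (adjusted p = 0.076). Of 17 genes of the ecdysone response, 4 passed and were higher and 2 were lower (median 0.67), beside 22.2% and 26.0% of all tested genes. *Eip78C* (log2 fold change 1.83, adjusted p = 0.00054) and the ecdysone receptor gene *EcR* (0.89, adjusted p = 0.001) had the smallest p of those higher. The lower ones were *Ldh* (-0.37, adjusted p = 0.0044), lactate dehydrogenase, which is listed for its ecdysone-inducible expression, and *E23* (-0.34, adjusted p = 0.01), an ABC transporter. *ftz-f1*, a nuclear receptor induced as an ecdysone pulse declines, had 154, 96.2 and 117 CPM in mutants, against 13.4, 12.9 and 39.8 CPM in controls (log2 fold change 2.48, adjusted p = 0.03). *Eip74EF*, an early ecdysone target, had 99, 68.5 and 128 CPM in mutants, against 2.74, 4.63 and 37 CPM in controls and did not pass (adjusted p = 0.13). Control replicate 3 was the highest control in both genes.

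Of the 6 epidermal regulators, 1 passed and was higher, *grh* (log2 fold change 0.50, adjusted p = 0.0068), and 2 were lower, *Nf-YA* (-0.58, adjusted p = 0.0042) and *ttk* (-0.25, adjusted p = 0.007), with a median of -0.05. For this list and the marker lists, the shares of all tested genes were 22.2% passing higher and 26.0% passing lower. Markers of epidermis and trachea summed to 4195 to 4801 CPM in mutants, against 2497 to 3366 CPM in controls, with 6 of 10 passing higher and none at 0 in all libraries, and 3366 CPM was the value of control replicate 3. This list shares *kkv*, *knk*, *verm*, *serp* and *Gasp* with the chitin synthesis list and *grh* with the regulators. Of its other members, *trh* passed and was higher (log2 fold change 0.41, adjusted p = 0.018). The rest, *pio* (0.10), *btl* (0.07) and *dpy* (-0.03), did not pass. Markers of muscle summed to 49000 to 54595 CPM in mutants, against 55270 to 57295 CPM in controls, with 5 of 9 passing lower. Markers of midgut summed to 4733 to 5280 CPM in mutants, against 3714 to 3852 CPM in controls (4 of 6 higher), and those of the nervous system to 411 to 483 CPM in mutants, against 319 to 373 CPM in controls (5 of 7 higher, 1 lower). Fat body markers summed to 8805 to 10868 CPM in mutants, against 10856 to 12620 CPM in controls (2 higher and 2 lower of 7 tested), and hemocyte markers to 117 to 140 CPM in mutants, against 135 to 143 CPM in controls (1 of 6 lower). The part of these shifts in the levels of the Cpr genes was not tested.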

How the data were processed

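RNA from 6 whole-larva samples (3 per genotype) had been made into stranded mRNA libraries and aligned with STAR to BDGP6, per the labels and processing notes. The sources used here do not state the version of STAR. The authors deposited per-gene counts of read pairs for each sample, unnormalized, for unstranded and both stranded readings; the reversely stranded column was used. Unassigned entries were left out. Multimapping reads were 3.972 to 4.718% and are not in the gene counts.

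Symbols came from the BDGP6.54 annotation. Genes with at least 12 counts over the 6 libraries were tested with edgeR 4.0.16 (TMM, quasi-likelihood F test, genotype as the only term), in R 4.3.3, with Benjamini-Hochberg adjustment over all tested genes. The test was checked on simulated counts. These had the same spread beyond counting noise in every gene, and no library stood apart. The check therefore does not cover genes in which control replicate 3 stood apart. CPM were counts over assigned pairs, after TMM scaling between libraries. Alternatives were DESeq2 1.42.0, limma-voom (limma 3.58.1), other scaling and filters, unstranded counts, a replicate block and leaving out libraries. Full statistics were given for the members with the smallest p in each direction, the highest levels or the largest fitted changes, and for *Cpr67Fa1* and *Cpr67Fa2*. Of the cuticle, epidermal regulator and ecdysone lists, the 2 genes that passed with the smallest p in each direction were named; *TwdlL*, *Cht7*, *ple*, *Osi7*, *Osi12*, *ftz-f1* and *Eip74EF* were added after their values were seen. Marker lists were given by their sums and counts. Members, lists and tests were chosen with earlier results of these data known. Protein and promoter sequences were not analysed here.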

Additional observations from a re-analysis of the deposited data

Results flagged for a closer look

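Reads on the strand opposite to a member are outside the counts tested, and they were above the control level in 2 members with at least 20 such counts in a library. For *Cpr51A* the lowest mutant library had 1.87 CPM on the opposite strand and the highest control 0.973 CPM. These counts were 0.525% of the sense counts in mutants and 1.24% in controls, and the annotation has no gene there. For *Cpr73D* the lowest mutant library had 14.3 CPM and the highest control 11.8 CPM on the opposite strand, where *Ogdh* overlaps it. The groups of 3 libraries were too small for a test of single deviating samples.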

How the results depend on the processing

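The number of members that passed higher (16) was 29 by limma-voom, 31 without replicate 3 of both genotypes, and 6 to 31 when each library was left out in turn. The number at least 2-fold higher (8) was 13 by DESeq2, 19 by limma-voom, 26 without replicate 3 of both genotypes and 2 to 26 over the libraries left out. The number at least 2-fold lower (1) was 2 without replicate 3 of both genotypes and 1 to 4 over the libraries left out. The median log2 fold change (0.77) ran from 0.64 to 1.11 over the libraries left out. *Cpr78Cc* (0.07) ran from -0.00, without control replicate 2, to 0.14, without mutant replicate 2. The cause of these shifts was not tested, other than that fewer libraries were fitted. Same-numbered samples did not deviate together (correlations of -0.29, -0.10 and -0.31 over all tested genes), and 0 libraries correlated best with their own number. With the replicate number as a block, 14 members passed higher, 9 lower and 5 were at least 2-fold higher. Over 35 members given with full statistics, 441 of 524 values under the alternatives kept direction and side of the threshold, 36 lost and 46 gained the call. With 3 libraries a genotype and members at 0 to 13 counts in controls 1 and 2, the size of the largest changes was not fixed by these data.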
